A study of Homo sapiens with 24 samples.

Results

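The comparison described here is that of the Δ133p53β5 clonal cell line with vector control cells. Its members are 8 of the 24 RNA libraries of the study, 4 from Δ133p53β5 and 4 from control, taken by the names of the columns in the table of read counts. Both lines are NCI-H1299, a human non-small cell lung cancer line that the labels give as p53 deficient. Control cells carried the vector only, and Δ133p53β5 cells carried a plasmid for the human Δ133p53β isoform and overexpressed it. No agent and no time point is given for either line. Δ133p53β5 is 1 clone, so a difference between it and control can be one of the isoform, of the clone or of both, and these cannot be told apart within this pair. The other lines of the study are 3 clones with Δ133p53α (α1, α2 and α8) and 1 other clone with Δ133p53β (β10). The library used here as Δ133p53β5 replicate 4 is titled as a library of Δ133p53β10 in the sample records, whereas the count table names it as one of Δ133p53β5. Nothing in the records says that libraries of a line came from separate cultures, so the p-values below measure the spread between libraries, which may be technical.

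p53 is a transcription factor that halts the cell cycle or starts cell death after DNA damage. The Δ133p53 isoforms start at an internal promoter and lack the N-terminal transactivation domains and part of the DNA-binding domain. The α and β forms differ in their C-terminal ends, which arise by alternative splicing.

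Between 21827560 and 21921683 reads were counted in the Δ133p53β5 libraries and between 21722129 and 25381731 in the control libraries, and at least 99.87% of the reads of each library fell on the 17990 genes tested. Levels are given as CPM (reads scaled to a common library size) after TMM normalization, which are not corrected for gene length. The libraries of the series fell into 2 sets of 12 by whether long genes stood high or low in them relative to the other libraries. Δ133p53β5 replicate 1 and control replicates 2, 3 and 4 belonged to the set in which long genes stood high (the positive set). Δ133p53β5 replicates 2, 3 and 4 and control replicate 1 belonged to the other (the negative set). Most of the clone and most of the control therefore lay in different sets. Δ133p53β5 replicate 1 and control replicate 1 can be seen apart where levels are listed or plotted by library. A range given for a whole group pools them with the other libraries. Control replicate 3 stood apart in another way. The summed level of 40 cell cycle and mitosis genes was 3938 CPM in it, against 8293 to 8803 CPM in the other control libraries and 8624 to 9417 CPM in the clone. The markers of the labelled cell type were mixed. KRT8 and KRT18, keratins of simple epithelia, had at least 11255 reads in every library, and VIM, the intermediate filament of mesenchymal cells, had at least 53466. CDH1 and EPCAM, adhesion proteins of epithelia, had at most 5 reads, and the surfactant genes SFTPA1, SFTPC and SFTPD had 0 reads. Of the other lung epithelial markers looked at, AGER had 59 to 162 reads, NKX2-1 had 1 to 12 and NAPSA had 0 to 8. SFTPB had at most 1 read, FOXJ1 at most 2 and SCGB1A1 had 0. Markers of blood and endothelial cells had at most 6 reads, apart from ITGAM, which is described with the integrins.

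**Figure D1:**
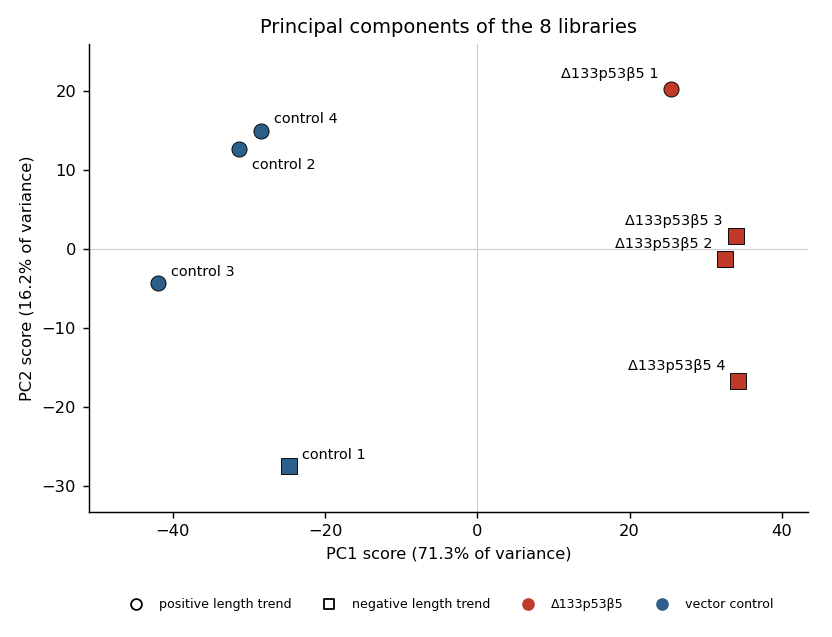
Scores of the 8 libraries on the first 2 principal components of log2 CPM over the 500 most variable genes. Circles mark libraries of the positive set and squares those of the negative set. PC1 (71.3% of the variance) separates the clone (25.4 to 34.3) from control (-41.9 to -24.7), and on PC2 (16.2%) control replicate 1 is lowest at -27.5 and Δ133p53β5 replicate 1 highest at 20.3.

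Changes were called by edgeR's quasi-likelihood test where the adjusted p (Benjamini-Hochberg) was below 0.05 and the log2 fold change was 1.5 or more, up or down. Of the 17990 genes tested, 248 rose in Δ133p53β5 (1.38%) and 529 fell (2.94%), 777 in all (4.32%). By the adjusted p alone, 702 were higher (3.9%) and 1011 lower (5.62%), 1713 in all (9.52%). The 4 clone libraries lay wholly above the 4 control libraries for 237 of the 248 and wholly below them for 470 of the 529, where 8.08% and 8.37% of all tested genes did so. Protein-coding genes made up 149 of the genes that rose and 422 of those that fell, among 12874 tested. Of 3462 long noncoding RNA genes 77 rose and 72 fell, or 77 and 112 with the library set (above) as a term. Changes of at least 4 on the log2 scale were seen for 36 genes that rose and 80 that fell.

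With the library set as a term in the fit, 277 genes rose (1.54%) and 694 fell (3.86%), 971 in all (5.4%), of which 200 and 460 were called without the term as well. Without control replicate 3, 233 genes rose and 368 fell, and 196 and 353 of them were among those called with all libraries.

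**Figure D2:**
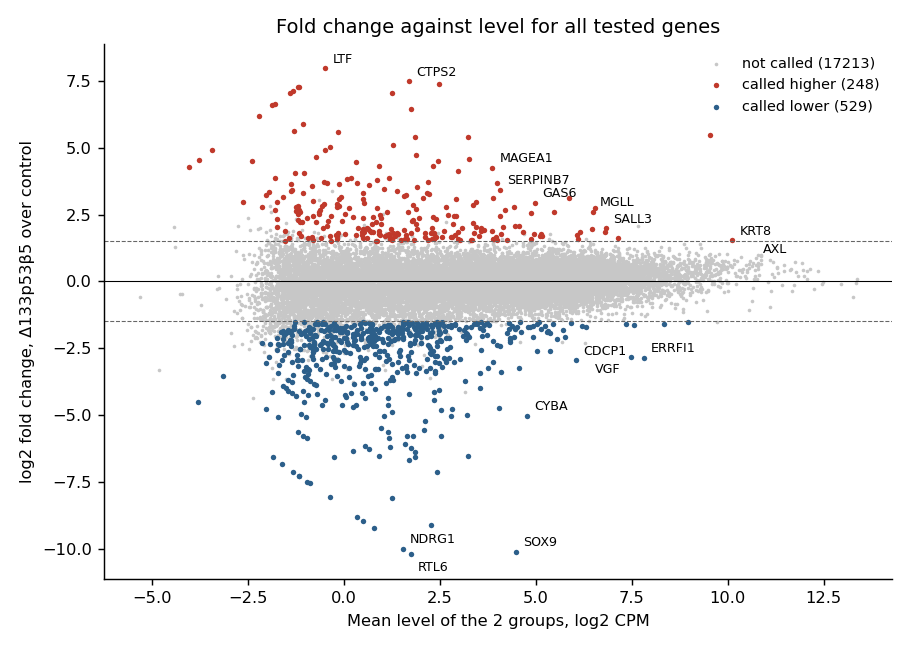
log2 fold change of Δ133p53β5 over control against the mean level of the groups in log2 CPM, for the 17990 genes tested. Red points are the 248 genes that rose, blue points the 529 that fell and grey points all others, and dashed lines mark a log2 fold change of 1.5. The lowest fitted values are those of RTL6 (-10.22), SOX9 (-10.11) and NDRG1 (-10.01) and the highest is that of LTF (7.98), which depend on the prior count because one group is near 0 reads.

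The largest falls were of transcripts that control cells held and that were at or near 0 reads in every library of the clone. For such genes the fold is a lower bound, in which each clone library is set at 3 reads. SOX9, a transcription factor of progenitor cells in lung, gut and cartilage, stood at 53.4, 28.8, 71.1 and 23.9 CPM in control replicates 1 to 4 (the order used throughout) and at 0.0427, 0.0455, 0.0458 and 0 CPM in the clone, at least 319-fold lower. NDRG1, a gene induced by hypoxia and linked to the suppression of metastasis, stood at 7.87, 4.38, 7.85 and 2.92 CPM in control and had 0 reads in all 4 clone libraries, at least 41.4-fold lower. RTL6, a gene derived from a retrotransposon Gag sequence, was at 3.95 to 7.96 CPM in control and had 0 reads in the clone, at least 48.02-fold lower. NETO1, an auxiliary subunit of kainate receptors, was at 5.99 to 11.3 CPM in control and was at least 68.6-fold lower. ZC3HAV1L, ADPRH (an ADP-ribosylarginine hydrolase), RIPK4 (a kinase of epidermal differentiation), BMP7 (a ligand of the TGF-β family) and FAM230C had 0 reads in every clone library, with bounds of 24.5-, 20.2-, 17.96-, 10.9- and 7.56-fold. The pseudogene LDHAL6FP was at least 33.8-fold lower, and its reads can be shared with its parent family. In all, 74 of the 529 genes that fell had at most 3 reads in each clone library.

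The largest rises were of the opposite kind, and for these the control libraries are set at 3 reads where they held no more than that. TRPM2, a calcium channel opened by ADP-ribose, stood at 9.85, 9.91, 10.5 and 13.9 CPM in the clone and at no more than 0.127 CPM in control, at least 91.5-fold higher. CTPS2, a CTP synthase, stood at 5.67, 6.23, 5.81 and 7.96 CPM in the clone and at no more than 0.0751 CPM in control, at least 53.2-fold higher. NR0B1 (DAX1), an orphan nuclear receptor that represses steroid hormone synthesis, was at 5.82 to 7.91 CPM in the clone and at least 54.99-fold higher. CRACR2A, a regulator of store-operated calcium entry, was at 4.18 to 5.67 CPM in the clone and at least 39.3-fold higher. LTF, the iron-binding protein lactoferrin, had 0 reads in every control library and 0.981 to 2.36 CPM in the clone, at least 11.7-fold higher, and GAP43, a protein of growing axons, was at least 12.5-fold higher. Other genes of this group were measurable in control. ANXA3, an annexin that binds phospholipids with calcium, was at 0.346, 0.511, 0.413 and 0.423 CPM in control and at 16.2, 20.9, 21.9 and 13.9 CPM in the clone, a log2 fold change of 5.41 ± 0.294 (SE, as for each log2 fold change below). LRRC4C, a synaptic adhesion protein, rose by 5.39 ± 0.695, and GDNF, the ligand of the RET co-receptors, by 5.10 ± 0.531. In all, 33 of the 248 genes that rose had at most 3 reads in each control library.

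Among well-expressed transcripts, 15 genes rose and 19 fell that had a mean of at least 30 CPM in the higher group, libraries that did not overlap, and a call that remained with the set as a term, without control replicate 3 and without Δ133p53β5 replicate 4. This rule was added after the values were seen. ERRFI1, a feedback inhibitor of EGFR, had the highest level among the falls shown in the plot of levels by library. It stood at 300.0, 322, 638 and 324 CPM in control and at 77.4, 42.5, 59.8 and 38.6 CPM in the clone. Control replicate 3 was the highest of the control libraries, and without it the log2 fold change was -2.53 against -2.86 ± 0.396 with it. CDCP1, a transmembrane substrate of Src kinases, stood at 93.3, 88.8, 215 and 67.8 CPM in control and at 14.8, 13, 10.7 and 21.9 CPM in the clone (-2.95 ± 0.506). CYBA, the p22phox subunit of NADPH oxidases, stood at 90.3, 36.5, 49.4 and 34.9 CPM in control and at 0.683, 1.55, 1.60 and 2.62 CPM in the clone (-5.04 ± 0.864). ADGRB1, an adhesion receptor that inhibits angiogenesis, fell by 4.73 on the log2 scale, NTSR1, a neurotensin receptor, by 3.38 and ABCA3, a lipid transporter of lung surfactant cells, by 2.17.

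The well-expressed transcripts that rose included secreted factors and metabolic enzymes. FGF1, a fibroblast growth factor, stood at 5.37, 7.79, 1.5 and 6.94 CPM in control and at 37.5, 36.6, 37 and 38.9 CPM in the clone (2.80 ± 0.357). MGLL, the lipase that degrades monoacylglycerols, stood at 11.6, 37.7, 19.3 and 32.4 CPM in control and at 146, 155, 125 and 190 CPM in the clone (2.61 ± 0.371). SERPINB7, a serine protease inhibitor, stood at 2.34, 3.70, 0.714 and 4.53 CPM in control and at 44.7, 28.1, 27.3 and 21.7 CPM in the clone (3.43 ± 0.500). In all 3 genes the lowest clone library was above the highest control library, as the rule for choosing them required. AOX1, aldehyde oxidase, rose by 2.57 ± 0.384, NRN1, a neurite growth factor, by 2.09 ± 0.189 and the transcription factor SALL3 by 2.00 ± 0.506. PDLIM1, a cytoskeletal adaptor, was at 19.6 to 22.95 CPM in Δ133p53β5 replicates 1 to 3 and at 62.3 CPM in replicate 4, against 4.07 to 5.79 CPM in control.

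GAS6, a ligand of the TAM receptor kinases, is described with its receptors, which were added after the values were seen. GAS6 stood at 4.34, 8.93, 7.4 and 8.63 CPM in control and at 37.96, 53.2, 49.6 and 83.9 CPM in the clone, a log2 fold change of 2.94 ± 0.359 (edgeR, adjusted p = 1.06e-05). AXL, its receptor with the highest level here, stood at 1395, 1346, 757 and 1322 CPM in control and at 2125, 2010, 2016 and 2593 CPM in the clone. The groups did not overlap, and the log2 fold change of 0.86 ± 0.202 passed the adjusted p threshold (edgeR, adjusted p = 0.00795) but not the fold threshold. The other two receptors, MERTK at -0.86 ± 0.375 (edgeR, adjusted p = 0.162) and TYRO3 at -0.06 ± 0.182 (edgeR, adjusted p = 0.872), did not pass, and the sign of TYRO3 changed under 4 alternatives given in the closing section.

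Genes for surface proteins that the study measured are given for that reason, and MET, EGFR, TFRC and ITGA5 did not pass. MET stood at 40.3 to 65.8 CPM in control and 31.5 to 67.4 CPM in the clone (log2 fold change -0.30 ± 0.391; edgeR, adjusted p = 0.657). EGFR stood at 45.0, 129, 91.1 and 111 CPM in control and at 101, 65.0, 60.1 and 43.1 CPM in the clone. Its log2 fold change was -0.48 ± 0.517 (edgeR, adjusted p = 0.581). TFRC, the transferrin receptor, stood at 145, 357, 72.5 and 374 CPM in control and at 445, 222, 313 and 154 CPM in the clone. Its log2 fold change was 0.26 ± 0.598 (edgeR, adjusted p = 0.816). With the set as a term the log2 fold changes were 0.19, 0.31 and 0.89, so those of MET and EGFR changed sign, and that of TFRC was -0.04 without control replicate 3. ITGA5, the integrin chain of the fibronectin receptor, stood at 61.4 to 96.6 CPM in control and 30.3 to 66.1 CPM in the clone, which overlapped through Δ133p53β5 replicate 4 (-0.77 ± 0.264; edgeR, adjusted p = 0.0695). With the set as a term it was -0.91, and without that library it was -1.02 and passed the adjusted p threshold but not the fold threshold (edgeR, adjusted p = 0.0199). FLT1 and ACVRL1 had at most 9 reads in each of the 8 libraries and were not tested.

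Gene lists were read by the number of their members called, beside 1.38% of all tested genes that rose and 2.94% that fell. At an unadjusted p under 0.05 by edgeR, 1953 of all 17990 tested genes were higher and 2421 lower. Counts of list members at that threshold are to be read beside these. Known transcriptional targets of p53 came first. Of 31 tested, 0 rose and 0 fell by edgeR, with 6 higher and 3 lower at an unadjusted p under 0.05, DESeq2 called 1 lower and limma called 0. CDKN1A, the cell cycle inhibitor p21, stood at 43.1, 29.95, 37.7 and 24.4 CPM in control and at 55.5, 48.3, 53.2 and 68.8 CPM in the clone. Its log2 fold change was 0.74 ± 0.282 (edgeR, adjusted p = 0.107). MDM2, the ubiquitin ligase of p53, stood at 31.7 to 52.0 CPM in control and 38.4 to 62.1 CPM in the clone, with a log2 fold change of 0.51 ± 0.224 (edgeR, adjusted p = 0.163). Of 40 cell cycle and mitosis genes, 0 were called by edgeR, DESeq2 or limma, with 4 higher at an unadjusted p under 0.05. Their median log2 fold change of 0.24 was 0.04 without control replicate 3.

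Growth factor receptors changed in both directions. INSR, the insulin receptor, stood at 0.384, 0.468, 1.05 and 0.381 CPM in control and at 7.25, 4.77, 3.71 and 5.6 CPM in the clone, a rise of 3.20 ± 0.386 on the log2 scale. ROR2, a receptor for WNT5A, fell by 3.40 on that scale, from 4.22 to 6.72 CPM in control to 0.359 to 0.725 CPM in the clone. ERBB3, the partner of other ERBB receptors, fell by 2.19. These were the only calls among 20 receptors tested. PIK3CG, the catalytic subunit of PI3K gamma, stood at 7.03, 14, 9.43 and 12 CPM in control and at 0.0853, 0.0909, 0 and 0.103 CPM in the clone, at least 76.4-fold lower, and was the 1 call among 16 genes of the PI3K and AKT pathway. Among 20 outputs of the MAPK pathway EGR1 fell by 2.14 on the log2 scale, a call that was lost without control replicate 3 (-1.56; edgeR, adjusted p = 0.0606).

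In the Wnt pathway 3 of 26 rose and 1 fell. RSPO4, an enhancer of Wnt signalling, stood at 1.88, 1.86, 1.14 and 3.54 CPM in the clone and at 0.0423 to 0.338 CPM in control (3.87 ± 0.514). The Wnt inhibitor SFRP1 fell by 3.26. WNT7B was at 1.23 to 1.58 CPM in Δ133p53β5 replicates 1 to 3 and at 5.85 CPM in replicate 4, against 0.192 to 0.413 CPM in control, and its call was lost without replicate 4 (2.22; edgeR, adjusted p = 0.106) and without any one of control replicates 1, 2 and 4. WNT5B rose by 1.74, or by 1.49, under the fold threshold, without control replicate 3. In the Notch pathway 2 of 17 fell. The receptor NOTCH3 stood at 8.10, 5.36, 26.1 and 5.04 CPM in control and at 1.37, 1.45, 0.732 and 1.95 CPM in the clone (-3.02 ± 0.474), and the ligand JAG1 fell by 2.06. In the TGF-β and BMP pathway 3 of 26 fell, BMP7 and the latent TGF-β binding proteins LTBP1 and LTBP2. Without control replicate 3, BMP7 alone was called, with LTBP1 at -1.12 and LTBP2 at -1.20. LTBP1 was not called without Δ133p53β5 replicate 4 either (-1.63; edgeR, adjusted p = 0.0991). LIF, a cytokine of the interleukin 6 family and the 1 call among 10 inflammatory genes, stood at 25.3, 15.2, 44 and 13.1 CPM in control and at 3.33, 2.95, 2.2 and 1.85 CPM in the clone (-3.24 ± 0.327). Of 13 lineage factors of lung and gut, SOX9, SOX2 and CDX2 fell and 0 rose, though CDX2 reached no more than 0.383 CPM in any control library. SOX2 was not called without Δ133p53β5 replicate 4 (-1.73; edgeR, adjusted p = 0.0922).

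Genes of adhesion and matrix were split. Among 27 collagens and laminins, COL16A1 and COL4A6 rose and LAMC3 and COL13A1 fell. LAMC3, a laminin chain, stood at 3.22, 3.15, 3.83 and 3.00 CPM in control and at 0.427, 0.273, 0.275 and 0.359 CPM in the clone (-3.29 ± 0.326). Among 20 integrins, counted without 3 binding proteins and 1 pseudogene that share the symbol and were left out after their values were seen, ITGAM, ITGAX and ITGB7, all of leukocyte integrins, fell and 0 rose. ITGAM stood at 7.74 to 12 CPM in control and 2.26 to 3.03 CPM in the clone (-1.86 ± 0.228), and was the only integrin called without control replicate 3. The leukocyte marker PTPRC had 0 reads in all 8 libraries. Of 28 matrix proteases and inhibitors ADAMTS18 rose and ADAMTS13 fell. Of 11 epithelial junction and keratin genes KRT8 rose by 1.55 ± 0.349 and CLDN4 fell by 2.14, and both calls were lost without control replicate 3, that of KRT8 also without Δ133p53β5 replicate 4 (1.41). FN1, fibronectin, was the 1 call among 12 mesenchymal genes, at -1.65, and stood at 20.1 CPM in control replicate 3, at 8.08 to 8.46 CPM in the other control libraries and at 2.70 to 4.48 CPM in the clone. Without control replicate 3 its log2 fold change was -1.21 (edgeR, adjusted p = 0.135), and without Δ133p53β5 replicate 4 its adjusted p by edgeR was 0.0506.

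Neuronal genes changed in both directions. In the synapse list 3 of 15 rose (ERC2, GAP43 and LRRC4C) and 3 fell (L1CAM, NLGN3 and SNAP25), and the same 6 were called without control replicate 3. In axon guidance 4 of 51 rose (PLXNA2, ROBO2, SEMA3E and SEMA7A) and 4 fell (SLIT3, SEMA4B, EFNB3 and NTN1). SEMA4B, the guidance gene with the highest level here, stood at 40.5 to 92.4 CPM in control and 11.7 to 27.8 CPM in the clone, a fall of 1.93. EFNB3 and NTN1 were not called without control replicate 3, and ROBO2 was not called without Δ133p53β5 replicate 4. The clustered protocadherins, cell surface proteins of neuronal identity, had 2 of 18 members called, both lower, and 0 of 18 with a log2 fold change above 0. Their median was -1.20, and -0.61 with the set as a term. PCDHA11 was not called without control replicate 3 (edgeR, adjusted p = 0.0875) or without Δ133p53β5 replicate 4 (edgeR, adjusted p = 0.0728).

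Calls in each of the stress and metabolic lists numbered 3 at most. Of 24 genes of the hypoxia response and glycolysis, NDRG1, EGLN3 and SLC2A3 fell, and SLC2A3, a glucose transporter, stood at 137 CPM in control replicate 3, at 32.2 to 49.1 CPM in the other control libraries and at 19.1 to 22.5 CPM in the clone. Without control replicate 3 its log2 fold change was -0.95, under the fold threshold. STC2 was the 1 call among 31 stress response genes and was lost without that library (-1.27; edgeR, adjusted p = 0.0897). TFR2, a transferrin receptor of hepatocytes, fell by 2.64 and was the 1 call among 21 genes of iron handling and ferroptosis. AKR1C3, an aldo-keto reductase, had 0 reads in control and 0.299, 0.364, 0.824 and 2.00 CPM in the clone, at least 7.23-fold higher, and was the 1 call among 18 NRF2 targets. Of 40 endosomal recycling genes, EHD3 and RAB11FIP4 fell, the latter not without control replicate 3. Replication-dependent histones had 1 of 20 members called, H2BC21, which was lost without control replicate 3 (-0.49) and without Δ133p53β5 replicate 4 (edgeR, adjusted p = 0.0715). Of the 20, 19 had a log2 fold change below 0 and 1 above it, and limma called 0. At an unadjusted p under 0.05 by edgeR, 9 were lower and 0 higher. MAGEA1, a cancer-testis antigen, rose and GAGE1 fell among 18 such genes. GAGE1 belongs to a family of near-identical copies, so its counts are uncertain.

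Broad shifts moved with the library set. All but 1 of the 81 cytosolic ribosomal protein genes had a log2 fold change above 0, with a median of 0.68 and 0 called. With the set as a term the median was 0.14. Their summed level was 51736 to 88186 CPM in control, highest in replicate 1, and 62890 to 130071 CPM in the clone, lowest in replicate 1. The 78 nuclear genes of oxidative phosphorylation, counted without 8 pseudogenes in the same manner, went from a median of 0.55 to 0.07 in the same way, with 0 called. At an unadjusted p under 0.05, 15 of the first list and 13 of the second were higher and 0 lower, and DESeq2 and limma called 0 in either. Of all 17990 tested genes, 1953 were higher and 2421 lower at that threshold. Cholesterol synthesis and uptake had a median of 0.58, or 0.52 with the set as a term, and 0 of 23 called by edgeR, DESeq2 or limma, with 8 higher at an unadjusted p under 0.05. The same tools called 0 of 15 interferon response genes (4 lower at an unadjusted p under 0.05), 0 of 14 antigen presentation genes (1 in each direction), 0 of 30 HOX genes (5 higher and 7 lower) and 0 of 13 mitochondrially encoded genes (3 lower). The part of the library set in these medians was not tested beyond these fits. The counts are of bulk RNA, in which fewer cells of a kind and less RNA per cell cannot be told apart.

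The comparison was also made within each set, where the values share no library. In the positive set Δ133p53β5 replicate 1 was compared with control replicates 2 to 4, and 117 genes rose (0.65%) and 138 fell (0.767%), 255 in all (1.42%). In the negative set Δ133p53β5 replicates 2 to 4 were compared with control replicate 1, and 105 rose (0.584%) and 224 fell (1.25%), 329 in all (1.83%). In each, the lone library is assumed to vary like those of the other cells of the fit. The genes that rose in both numbered 74, which was 63.2% of those of the positive set and 70.5% of those of the negative set. The genes that fell in both numbered 108, which was 78.3% and 48.2%. Each gene called in one set had the same sign in the other, whereas 73.7% of all tested genes had the same sign in both. The difference between the sets was called for 0 genes by edgeR's quasi-likelihood test, and 195 had an unadjusted p under 0.05, the only tool run for it. In each set that test has a lone library on one side, so it can miss differences and does not show that the sets agree. SOX9 fell by 9.74 in the positive and 10.49 in the negative set, and ERRFI1 by 2.47 and 2.68. FGF1 rose by 2.79 and 2.80, ZNF22 by 4.58 and 4.68 and GAS6 by 2.19 and 3.84.

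**Figure D3:**
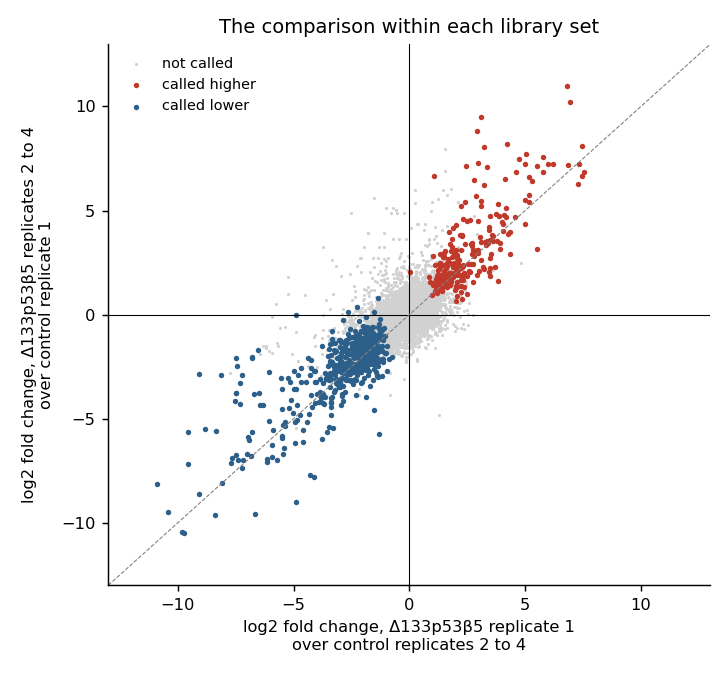
log2 fold change in the negative set (Δ133p53β5 replicates 2 to 4 over control replicate 1) against that in the positive set (replicate 1 over control replicates 2 to 4), for all tested genes. Red and blue points are genes called with all 8 libraries, and the dashed line marks equal values. All 248 genes that rose and 524 of the 529 that fell have the same sign on both axes. These genes were called from the same 8 libraries, so this agreement is in part fixed by how they were chosen.

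Adjacent genes changed together at 16 places, in runs of 3 or 4 tested neighbours called in the same direction (GRCh38, GENCODE positions). On chromosome 2 GALNT14, EHD3 and XDH fell across chr2:30910467-31414742. GALNT14, which starts O-glycosylation, stood at 4.88 to 7.62 CPM in control and at no more than 0.0909 CPM in the clone, at least 46.1-fold lower. EHD3, an ATPase of endosomal recycling, stood at 8.45, 7.36, 11.3 and 6.48 CPM in control and at 0.341, 0.227, 0.183 and 0.103 CPM in the clone (-5.24 ± 0.323). XDH, xanthine dehydrogenase, was low in control, at 0.254 to 1.38 CPM, and at least 6.07-fold lower in the clone. On chromosome 12 CRACR2A, the unnamed gene ENSG00000280202 and PARP11, a mono-ADP-ribosyltransferase, rose across chr12:3606633-3873448. PARP11 stood at 0.115, 0.213, 0.263 and 0.423 CPM in control and at 3.33, 2.14, 2.61 and 2.00 CPM in the clone (3.29 ± 0.415). On chromosome 10 ZNF22, a zinc finger gene, rose with ZNF22-AS1 and CEP164P1. ZNF22 stood at 0.384, 0.511, 0.563 and 0.339 CPM in control and at 11.4, 10.8, 10.7 and 8.57 CPM in the clone (4.51 ± 0.266).

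The bases upstream of 4 of these genes are shown because their neighbours moved with them. Each is the 250 bases before the RefSeq start (GRCh38.p14), 5′ to 3′ on the strand of the gene, with CG in capitals. CG was found in 93.6% of the 27305 promoters of the RefSeq table in a window of this length, with a median of 10. CG reads the same on both strands.
EHD3, chr2:31233902-31234151, plus strand: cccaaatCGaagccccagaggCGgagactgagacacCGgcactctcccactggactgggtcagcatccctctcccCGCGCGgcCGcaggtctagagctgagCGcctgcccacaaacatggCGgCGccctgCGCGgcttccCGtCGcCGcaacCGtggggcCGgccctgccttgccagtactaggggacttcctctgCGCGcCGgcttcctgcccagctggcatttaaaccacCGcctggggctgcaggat
XDH, chr2:31414743-31414992, minus strand: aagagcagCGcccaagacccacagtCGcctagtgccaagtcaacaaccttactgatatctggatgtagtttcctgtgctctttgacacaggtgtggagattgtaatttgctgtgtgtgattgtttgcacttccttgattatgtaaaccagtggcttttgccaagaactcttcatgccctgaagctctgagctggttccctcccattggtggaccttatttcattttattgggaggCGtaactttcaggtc
PARP11, chr12:3873400-3873649, minus strand: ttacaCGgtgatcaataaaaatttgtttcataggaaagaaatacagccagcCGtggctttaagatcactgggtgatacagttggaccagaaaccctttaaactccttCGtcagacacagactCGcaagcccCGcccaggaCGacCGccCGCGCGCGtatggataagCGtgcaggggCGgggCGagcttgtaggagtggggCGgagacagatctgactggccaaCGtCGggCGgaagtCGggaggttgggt
ZNF22, chr10:45000673-45000922, plus strand: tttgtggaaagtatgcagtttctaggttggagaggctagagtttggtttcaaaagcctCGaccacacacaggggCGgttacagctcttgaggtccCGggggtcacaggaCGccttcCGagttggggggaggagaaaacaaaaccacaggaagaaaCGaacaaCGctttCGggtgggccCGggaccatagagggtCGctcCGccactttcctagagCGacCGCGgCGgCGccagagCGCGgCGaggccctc
EHD3 held 21 CG, PARP11 and ZNF22 held 19 each and XDH held 3. These 4 genes are only some of those in the runs, and whether CG content went with the direction of change was not tested. The table held a promoter for 11515 of the 17990 tested genes (64.01%) and for 478 of the 777 called, and because so many had none, the genes that rose or fell were not compared with the rest.

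On chromosome 13 GAS6 rose with GAS6-AS1 and GAS6-DT, and on chromosome 14 TDRD9, an RNA helicase of germ cells, rose with ASPG and KIF26A. TDRD9 stood at 0.960, 2.13, 3.34 and 2.75 CPM in control and at 36.5, 25, 30.1 and 26.4 CPM in the clone (3.68 ± 0.421). ASPG was not called without Δ133p53β5 replicate 4 (2.94; edgeR, adjusted p = 0.0574). On chromosome 16 EMP2, a tetraspan membrane protein, fell by 3.02 with ATF7IP2 and ENSG00000256013. The kit marked strand, but the strand setting of the counting is not given, so reads of overlapping antisense genes such as GAS6-AS1 and RNF157-AS1 may not be separated from those of their partners. On chromosome 19 LYPD5, ZNF283, ZNF404 and ENSG00000278917 rose. ZNF283 stood at 171, 168, 181 and 42.3 CPM in Δ133p53β5 replicates 1 to 4 and at 23.8, 40.5, 23.5 and 55.5 CPM in control, so that replicate 4 lay within the range of control while the other 3 lay above it. Without control replicate 3, LYPD5 (edgeR, adjusted p = 0.0725) and ZNF283 (edgeR, adjusted p = 0.0548) were not called. STC1, NEFM and NEFL, on chromosome 8, fell together. STC1, stanniocalcin, stood at 219 CPM in control replicate 3 and at 32.2 to 48.3 CPM in the other control libraries, against 13.9 to 33.2 CPM in the clone, and was not called without that library (-1.05; edgeR, adjusted p = 0.0607). NEFM was not called without it (edgeR, adjusted p = 0.0542) or without Δ133p53β5 replicate 4 (edgeR, adjusted p = 0.0795).

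Neighbouring genes also moved by less than the threshold over longer stretches. In 17285 windows of 25 adjacent tested genes, the median log2 fold change with the set as a term ran from -1.20 to 0.99, with 1st and 99th percentiles of -0.68 and 0.65. The lowest window ran from RHBDF1 to STUB1 at chr16:58059-682870, where 0 of 25 genes were above 0 and only 1 was called. The medians there were -1.05 in the positive and -0.89 in the negative set. The next lowest separate windows were at the end of chromosome 8 (-0.98, ERICD to MAFA) and further along chromosome 16 (-0.95, METRN to MAPK8IP3). The highest was on the X chromosome, from MORF4L2-AS1 to ACSL4 at chrX:103687284-109733403, with 22 of 25 genes above 0. Over the whole X chromosome, 588 tested genes had a median of 0.27, or 0.32 with the set as a term, the highest of the chromosomes with 100 or more tested genes in either fit. Overlapping windows share genes, and no test was made over them.

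Against the other Δ133p53 clones the differences were fewer. Compared with the mean of the other 4 clones, 52 genes were higher in Δ133p53β5 (0.289%) and 32 lower (0.178%), 84 in all (0.467%). The 32 were 19, 12, 11 and 14 without Δ133p53β5 replicates 1, 2, 3 and 4 in turn, and 13 with the library titled as β10 counted there. Compared with α1, 98 were higher (0.545%) and 142 lower (0.789%), 1.33% in all. Compared with α2, 76 were higher (0.422%) and 85 lower (0.472%), 0.895% in all. Compared with α8, 47 were higher (0.261%) and 65 lower (0.361%), 0.623% in all. Compared with Δ133p53β10, 0 genes were called by edgeR (0%), and 0 had an adjusted p under 0.05. At an unadjusted p under 0.05 there were 270, or 1.501% of the genes tested. DESeq2 called 3 and limma 0 in that comparison, and edgeR called 1 without Δ133p53β10 replicate 4. No gene therefore met the criteria for being particular to this clone. These comparisons do not use the control levels, though the control libraries entered the shared filter, normalization and estimate of spread. Of the genes called against control, 28 that rose and 26 that fell were also called, in the same direction, against the mean of the other 4.

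The genes given next were picked from these 54 after their values were seen. MAGEA1 had the smallest adjusted p of them. It stood at 24.1, 20.6, 26 and 40.05 CPM in Δ133p53β5, at 41.4 CPM on average in β10, and at 0.200, 0.176 and 0.222 CPM on average in α1, α2 and α8, with 0.729 to 2.20 CPM in control. Its log2 difference from the mean of the other 4 clones was 5.19 ± 0.305 (edgeR, adjusted p = 6.87e-10), and that from β10 was -0.58 (edgeR, adjusted p = 1.00). TMEM71, a transmembrane protein gene, stood at 5.63, 5.23, 6.59 and 10.7 CPM in Δ133p53β5 and at 4.98 CPM in β10, against 0.0934 to 0.230 CPM on average in the α clones and 0.0768 to 0.563 CPM in control. EHD3 was at 3.03, 5.95 and 3.31 CPM on average in the α clones and at 0.196 CPM in β10, close to the 0.214 CPM of Δ133p53β5. HSD17B8, a dehydrogenase of fatty acid synthesis in mitochondria, stood at 0.256, 0.409, 0.595 and 0.513 CPM in Δ133p53β5, at 0.347 CPM in β10 and at 4.23 to 18.2 CPM in the α clones. CYBA was at 1.61 CPM in Δ133p53β5, 4.94 CPM in β10 and 12.8 to 32.8 CPM in the α clones, against 52.8 CPM in control. Its log2 difference from β10 was -1.62 (edgeR, adjusted p = 1.00). Other genes of the 54 lay nearer to an α clone, such as FBXL7, with a log2 difference of -3.09 from β10 and -0.24 from α8.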

How the data were processed

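Poly(A) RNA of 24 H1299 libraries was sequenced by the authors from a kit that marks strand, and reads were aligned to GRCh38 with HISAT2 and counted by gene with featureCounts. The deposited table holds counts, not normalized, for 60564 rows. The 1 row without a name held 0 reads and was left out, and 35020 genes had at least 1 count. Genes that passed edgeR's filterByExpr (17990) were tested in R 4.3.3 with edgeR 4.0.16, with TMM factors, a single quasi-likelihood fit of 6 groups (18 residual degrees of freedom), and p-values were adjusted by Benjamini-Hochberg within each comparison. DESeq2 1.42.0 and limma 3.58.1 were run as alternatives, with the others given in the closing section. Library sets were taken from the sign of the rank correlation of each library's deviation in log2 CPM with gene length, and within-set values came from a fit of 12 cells of group and set (12 residual degrees of freedom). The named genes are the 10 largest rises and falls called in both fits with libraries that do not overlap and at least 1 CPM, up to 4 called members per list and direction, and runs of adjacent called genes, with exceptions named in the text. A gene that the rule also names is not reported here. The comparison and the gene lists were chosen with earlier results of these data known. At this depth 3 reads correspond to 0.113 to 0.154 CPM in the 8 libraries, and such limits cover counting error only, since reads without molecular identifiers are not independent molecules. On simulated data for this comparison (17990 genes) 58% of genes changed by a log2 fold of 1.5 had an adjusted p under 0.05 and the right sign. The share was 84% at 2 and 100% at 4. The fold threshold was not applied to these shares, whereas the 3 false calls passed both thresholds. Changed genes were drawn from those well above the floor of reads, and no difference between library sets was simulated, so the shares do not cover genes near 0 reads. No library repeated another.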

Additional observations from a re-analysis of the deposited data

Results flagged for a closer look

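In 290 groups of 4 libraries (the genes named in the clone and in control), 1 library lay far from the other 3 by Dixon's test in 38. For normally spread values the test flags about 1 group in 20. The CPM were not on a log scale and some groups were at 0 or 1 read, so that rate may not hold here. Control replicate 3 was that library in 16. It was above the other control libraries in STC1 (219 CPM against 32.2 to 48.3), SLC2A3 (137 against 32.2 to 49.1), LTBP2 (108 against 31.8 to 43.1), ERRFI1 (638 against 300.0 to 324), ADGRB1 (56.9), SDC3 (62.6), NOTCH3 (26.1), FN1 (20.1), EFNB3 (11.9), H2BC21 (11.6), ENSG00000267992 (10.6), NLGN3 (4.06), L1CAM (2.03), INSR (1.05) and RSPO4 (0.338), and below them in AXL (757 against 1322 to 1395).

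Δ133p53β5 replicate 4, the library titled as Δ133p53β10, was that library in 12. It was above the other clone libraries in PDLIM1 (62.3 CPM against 19.6 to 22.95), TRPM2 (13.9), COL16A1 (10.2 against 4.22 to 4.30), PLXNA2 (9.09 against 1.37 to 1.96), WNT7B (5.85 against 1.23 to 1.58), COL13A1 (1.64), ASPG (1.28), ADAMTS13 (0.513) and TFR2 (0.205), and below them in ZNF283 (42.3 against 168 to 181), IL18R1 (0.103 against 0.591 to 0.641) and SOX9 (0 reads).

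Δ133p53β5 replicate 1 was highest in EGR1 (3.75), LTBP1 (2.99), L1CAM (0.128), CDX2 (0.0427) and LDHAL6FP (0.0427). The remaining values were GAS6-AS1 in control replicate 1 (1.07 CPM against 2.50 to 2.72), HIKESHIP1 in control replicate 2 (0.0851), and, at 1 read or none, XDH in Δ133p53β5 replicate 2 (0.0455), NETO1 in replicate 3 (0.0458) and PIK3CG in replicate 3 (0).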

How the results depend on the processing

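The 138 named genes that were called kept their direction under each alternative in which they had a value (105 at a mean of 1 CPM and 126 in the fit of only the groups compared). Some were chosen because their call held with the set as a term or without control replicate 3, so the counts for them are in part fixed. Of all 248 genes that rose and 529 that fell, 200 and 460 were called with the term. Without control replicate 3, 196 and 353 of them were. Of the 138, 135 kept the call with DESeq2, 130 with limma, 130 with the set as a term, 113 without control replicate 3 and 74 within each set. The counts of 248 genes that rose and 529 that fell went to 164 and 333 under a filter at a mean of 1 CPM and to 664 and 982 where the threshold was a fold change of 1.5 rather than that value in log2. They were 117 and 138 within the positive set and 105 and 224 within the negative set, where 1 library stands alone on one side. Leaving out each library in turn gave 227 to 303 that rose and 368 to 608 that fell, lowest for falls without control replicate 3. With DESeq2 they were 303 and 737, with limma 258 and 478, without a filter 273 and 644, and with the library in question counted in Δ133p53β10 247 and 532. Beyond the losses given in the report, ROBO2, SOX2, SEMA3E, ITGAX, ITGB7, NTN1, LTBP1, FN1, H2BC21, NEFM, CDX2, CLDN4, RAB11FIP4, STC2, PCDHA11 and LYPD5 lost their call without 1 or more of Δ133p53β5 replicates 1 to 3 and control replicates 1, 2 and 4. The numbers of replicates do not pair the samples (correlations of same-numbered deviations from -0.72 to -0.03), and with the replicate block 232 rose and 481 fell.

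Against Δ133p53β10, DESeq2 called 3 lower and edgeR called 0 to 1 as each library was left out (1 without Δ133p53β10 replicate 4). Against the mean of the other 4 clones, the 52 higher genes were 26 at a mean of at least 1 CPM. The 32 lower genes were 53 with DESeq2, 50 with the set as a term, 21 without both single-set libraries, 13 with the library in question counted in Δ133p53β10, and 11 to 37 as each library was left out, with 19, 12, 11 and 14 without Δ133p53β5 replicates 1 to 4. Of the receptors that were not called, EGFR turned to 0.31 with the set as a term and 0.32 within the negative set, and MET to 0.19 with the term and 0.12 within the positive set. TFRC turned to -0.22 without both single-set libraries and ranged from -0.045 to 0.57 as each library was left out (-0.045 without Δ133p53β5 replicate 1, -0.043 without control replicate 3). TYRO3 turned to 0.22 with the length and GC trend removed and 0.027 within the negative set, and ranged from -0.19 to 0.016 as each library was left out (0.016 without Δ133p53β5 replicate 3, 0.0079 without control replicate 2). The causes of these changes were not tested. Depth limits the genes below 1 CPM, where 1 read is 0.0376 to 0.0513 CPM.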

Other observations

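Of the 12 transcripts in which Δ133p53β5 replicate 4 lay far from the other libraries of its line, WNT7B, COL16A1, ZNF283, IL18R1 and TFR2 also stood highest or lowest in 1 library of other clones. WNT7B was at 5.88 CPM in α1 replicate 4 against 0.54 to 1.17 CPM in the other α1 libraries, at 4.45 CPM in α2 replicate 4 against 0.86 to 1.49 CPM, and at 3.76 CPM in α8 replicate 2 against 0.34 to 0.72 CPM. COL16A1 was at 9.80, 8.08 and 7.66 CPM in the same 3 libraries, against 2.71 to 6.17 CPM in the other α libraries. ZNF283 was at 21.6, 39.0 and 45.1 CPM in them, against 58.5 to 241 CPM in the other α libraries. IL18R1 was the lowest of its line in each of the 3 (0.490, 0.323 and 0.557 CPM). TFR2, which was low throughout, was the highest of its line in each (0.381, 0.525 and 1.11 CPM). In Δ133p53β10, replicate 3 was the highest in WNT7B (3.74 CPM) and COL16A1 (9.47 CPM) and the lowest in ZNF283 (89.4 CPM, against 116 to 189 CPM in the other 3). There IL18R1 was lowest and TFR2 highest in replicate 4 instead (0.291 and 0.581 CPM). Of these libraries, α2 replicate 4 is in the positive set and the others are in the negative set. α8 replicate 2 is the only library of its line in the negative set. The part of the library set in these levels was not tested. TRPM2, COL13A1, ASPG and ADAMTS13 did not follow this in all 3 α libraries, and SOX9 was near 0 reads in each clone. PLXNA2 and PDLIM1 did not follow this in the α clones. PLXNA2 was lowest of its line in α1 replicate 4 (0.436 CPM), and PDLIM1 was lowest of its line in α2 replicate 4 (3.84 CPM). These genes were picked after their values were seen, and no test was made.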
